A study of Mus musculus with 3 samples.

Results

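The NFAT and calcineurin system described here was made up of 9 of the 31053 genes in the deposited feature tables. They were taken by symbol and not by measured value: the NFAT transcription factors *Nfatc1*, *Nfatc2*, *Nfatc3* and *Nfat5*, the calcineurin catalytic subunits *Ppp3ca*, *Ppp3cb* and *Ppp3cc*, the calcineurin regulatory subunit *Ppp3r1*, and the calcineurin inhibitor *Rcan1*. All 9 had at least 10 unique molecular identifiers (UMIs) in each comparison, so no member was lost to a filter on low counts. The data are droplet single-cell RNA libraries of splenic CD4+ T cells, sorted as 7AAD-CD3+CD4+ after enrichment for naïve cells, from C57BL/6 mice. There was 1 library of unstimulated Ift20 f/f cells in DPBS (WT unstimulated), 1 of Ift20 f/f cells stimulated for 24 h with antibodies to CD3 and CD28, each at 1 μg/mL (WT stimulated), and 1 of Ift20 f/f CD4 cre cells treated in the same way (IFT20-KO stimulated). All the mice carried the floxed *Ift20* alleles, and the Cre was driven by *Cd4* regulatory sequence, which directs the deletion to T cells. By the study's methods the mice were male and 5 to 10 weeks of age. The number of mice behind each library is not given in the sources used here, and there was no unstimulated IFT20-KO library among the samples.

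When the T cell receptor raises calcium in the cytoplasm, calcium and calmodulin activate the phosphatase calcineurin, a dimer of a catalytic A subunit and a calcium-binding B subunit. Calcineurin removes phosphates from NFATc1, NFATc2 and NFATc3, which then enter the nucleus and switch on cytokine and activation genes, *Il2* among them. NFAT5 lacks the calcineurin docking site and is known as the factor of the response to high salt, and RCAN1 binds calcineurin and restrains it, which makes a feedback loop because NFAT induces *Rcan1* from an internal start site. Activity of these proteins is set largely by phosphorylation and location, which transcript counts do not show.

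Cells were kept where over 200 genes were found and mitochondrial UMIs stayed below 15%, so that the libraries held 8031, 9903 and 13920 cells (WT unstimulated, WT stimulated and IFT20-KO stimulated), with 37133949 to 116979076 UMIs in all and medians of 4627, 12167 and 5014.5 UMIs per cell. *Ift20*, the targeted gene, was at 64.4, 76.0 and 6.60 UMIs per 1000000 (CPM), and the CD4 T cell markers *Cd3d*, *Cd3e*, *Cd3g* and *Cd4* were each found in 60.0% to 94.6% of cells, whereas the B cell markers summed to at most 3.64 CPM and the erythroid ones to at most 0.00940 CPM. The NK markers summed to 42.2 CPM in the unstimulated library and to at most 1.28 CPM in the stimulated ones, nearly all of it *Klrd1*, with *Ncr1* at 0 in the stimulated libraries. The CD8 markers summed to 28.7 CPM unstimulated and at most 11.51 CPM stimulated, nearly all *Cd8b1*, and the myeloid markers to 76.5 to 80.7 CPM, nearly all *Cst3*, with *Lyz2* at 0 in the stimulated libraries, and the part of such cells in the results was not tested. Pairs of libraries shared 125 to 207 barcodes, at most 2.01% of a library. The stimulated libraries differed in their share of cells with few UMIs: taking 4056 UMIs as the line (the WT stimulated median divided by 3), cells below it, called low-UMI cells here, were 34.5%, 23.2% and 48.0% of the libraries in the same order. Of the UMIs, low-UMI cells held 3.76% in the WT stimulated and 15.6% in the IFT20-KO library, and their median mitochondrial share was 10.3% and 5.66%, against 1.26% and 1.08% in the cells at or above the line (high-UMI cells). Because each group is 1 library, no test between groups exists, and the 95% intervals given below cover counting error only.

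The first comparison asked how the NFAT system of WT cells stood after 24 h of receptor stimulation. *Nfatc1* was higher, *Nfatc2*, *Nfatc3* and *Ppp3ca* were lower by 2-fold or more, and *Ppp3ca* differed most of the 9. In all, 1 of the 9 members was 2-fold or more higher, against 19.3% of the 13297 genes tested, and 3 were 2-fold or more lower, against 23% of genes. In high-UMI stimulated cells the same 1 and 3 members passed, against 18.7% and 25.7% of 13211 genes. By counting error alone, 3 members had an interval above 0, against 37.8% of genes (36.6% with high-UMI cells), and 6 below 0, against 43.8% (46.1%). The shares of all genes past 2-fold became 23.6% higher and 18.6% lower when the libraries were scaled by the median ratio of all genes in place of their totals, a shift of the median gene from -0.09 to 0.12 on the log2 scale. Under that scaling 2 members passed the rule upward, *Nfat5* (1.01) beside *Nfatc1*, and 2 downward, since *Nfatc2* was at -0.87, and none changed sign.

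*Nfatc1*, the NFAT gene that T cell activation is known to induce, was at 62.3 CPM in unstimulated cells (interval 59.8 to 64.9), at 136 CPM in WT stimulated cells (133 to 138) and at 153 CPM in IFT20-KO stimulated cells (150 to 155). No intervals overlapped, and the stimulated WT level was 2.18-fold the unstimulated one, a log2 ratio of 1.12 (1.06 to 1.18) that exceeded that of 83.0% of all genes tested. The count of UMIs per cell went from 0.288 to 1.60, in cells that also held more UMIs in total.

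*Nfatc2* and *Nfatc3* stood the other way round. *Nfatc2* was at 28.1 CPM unstimulated, 13.4 CPM in WT stimulated and 17.5 CPM in IFT20-KO stimulated cells, a log2 ratio of -1.07 (-1.19 to -0.96) for WT stimulation. *Nfatc3* was at 111, 35.9 and 53.5 CPM in the same order, a log2 ratio of -1.63 (-1.69 to -1.56). Both were therefore highest in the unstimulated library and lowest in the WT stimulated one. Counted per cell without scaling, *Nfatc3* was still lower after stimulation, at 0.513 against 0.424 UMIs per cell, whereas *Nfatc2* changed direction, from 0.130 to 0.158 UMIs per cell.

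*Nfat5* (ENSMUSG00000003847, chr8:107293470-107379517, plus strand, GRCm38), the tonicity-responsive member, was at 19.98 CPM in unstimulated, 34.8 CPM in WT stimulated and 66.1 CPM in IFT20-KO stimulated cells. Its WT stimulation ratio was 0.80 (0.69 to 0.92) on the log2 scale. That size depended on low-UMI cells: in high-UMI WT stimulated cells *Nfat5* was at 25.7 CPM and the log2 ratio to all unstimulated cells, low-UMI ones included, was 0.36 (0.24 to 0.48). With the line on both libraries, the unstimulated level was 16.8 CPM and the ratio 0.61. When every cell was given equal weight in place of every UMI, the ratio of high-UMI stimulated to all unstimulated cells was -0.21, and that of all stimulated to all unstimulated cells 1.46. The other NFAT ratios, of high-UMI stimulated to all unstimulated cells, did not change direction, at 1.05 for *Nfatc1*, -1.26 for *Nfatc2* and -1.89 for *Nfatc3*.

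**Figure D1:**
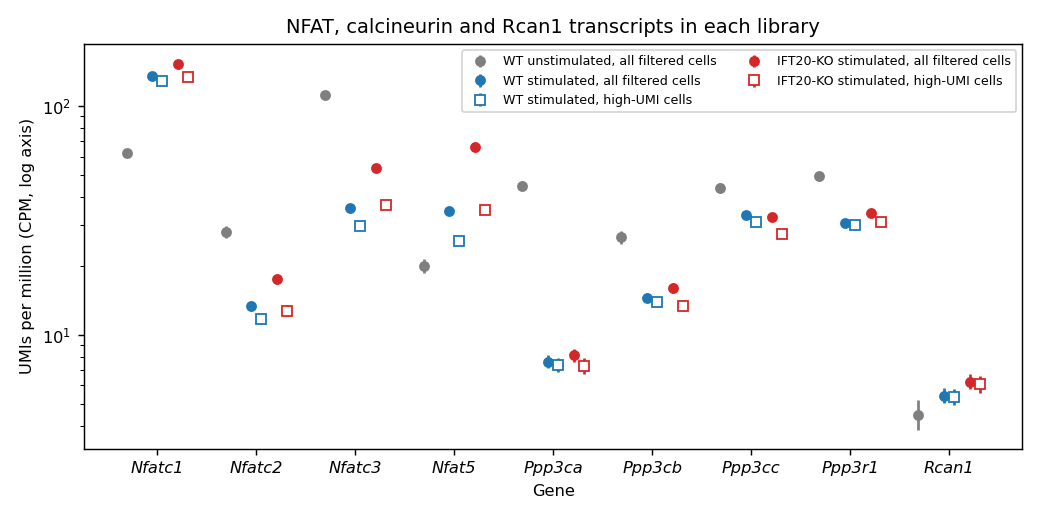
Level of each member in UMIs per 1000000 (CPM, log axis) in the 3 libraries, over all filtered cells (filled circles) and, for the stimulated libraries, over high-UMI cells (open squares), with bars for the exact Poisson 95% interval. *Nfatc1* and *Nfat5* sit higher and *Nfatc2*, *Nfatc3*, *Ppp3ca*, *Ppp3cb*, *Ppp3cc* and *Ppp3r1* lower after stimulation, though per cell without scaling *Nfatc2*, *Ppp3cb*, *Ppp3cc* and *Ppp3r1* were higher and *Nfat5* was lower in high-UMI stimulated than in all unstimulated cells when each cell had equal weight, and *Nfat5* is the member whose squares lie farthest below its circles.

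Scaled to library totals, the summed level of the 4 NFAT genes hardly differed between the WT libraries, at 221 CPM unstimulated and 220 CPM stimulated, while its make-up did. Per cell without scaling the sum was higher after stimulation, with 8223 UMIs in 8031 unstimulated cells and 25700 UMIs in 9903 stimulated cells. Of all NFAT UMIs, *Nfatc1* made up 28.1% (27.2 to 29.1) in unstimulated and 61.7% (61.1 to 62.3) in WT stimulated cells. *Nfatc3* made up 50.1% (49.0 to 51.2) and 16.4% (15.9 to 16.8), and *Nfatc2* 12.7% and 6.08%. These shares do not depend on how the libraries are scaled, and they compare libraries and not genes, because the capture of each transcript is unknown. In the IFT20-KO library the sum was 290 CPM, with 52.7% *Nfatc1* and 22.8% *Nfat5*. In high-UMI cells alone it was 218 CPM in the IFT20-KO library against 196 CPM in WT, with 61.3% and 65.6% *Nfatc1* and 16.03% and 13.1% *Nfat5*.

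**Figure D2:**
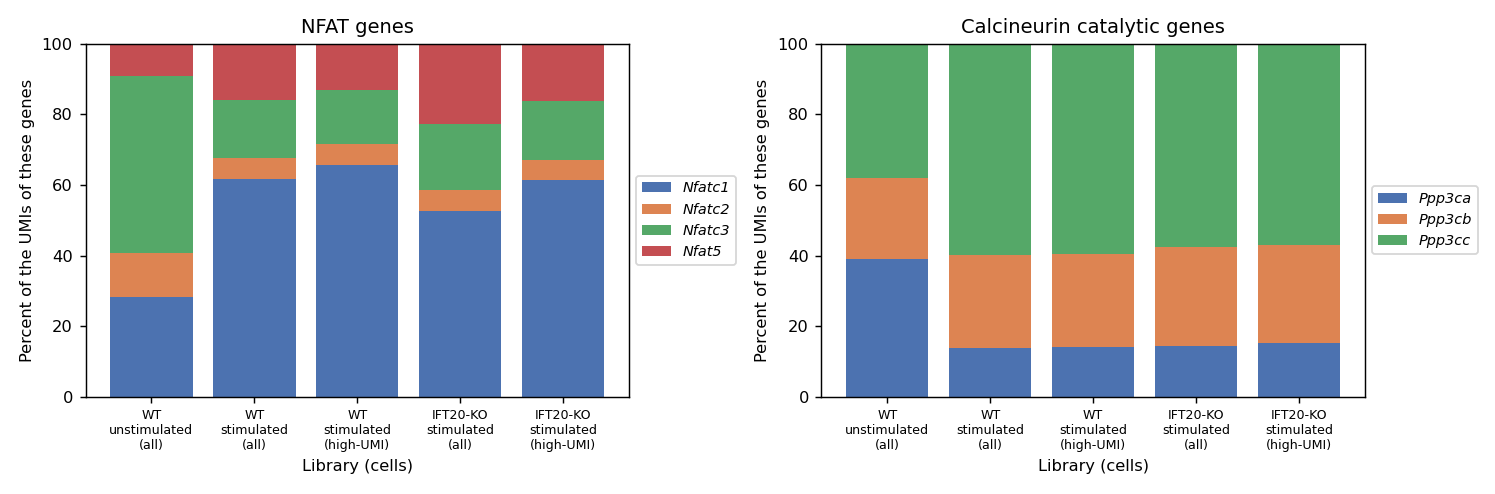
Percent of the UMIs of the 4 NFAT genes (left) and of the 3 calcineurin catalytic genes (right) held by each gene, with 1 bar per library and set of cells. The share of *Nfatc1* is higher and that of *Nfatc3* lower after stimulation, and the share of *Ppp3ca* goes from 38.9% to 13.7%, with both stimulated libraries alike in the catalytic genes.

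*Ppp3ca* (ENSMUSG00000028161, chr3:136670124-136937727, plus strand, GRCm38), the calcineurin A alpha subunit, was at 44.8 CPM in unstimulated cells (42.7 to 47.0), 7.61 CPM in WT stimulated cells (7.12 to 8.12) and 8.11 CPM in IFT20-KO stimulated cells (7.58 to 8.67). The unstimulated level was thus 5.89-fold the WT stimulated one, a log2 ratio of -2.56 (-2.68 to -2.44) below which only 5.41% of the genes tested lay, and the stimulated libraries overlapped in their intervals. *Ppp3ca* was lower after stimulation also per cell without scaling, at 0.207 against 0.0899 UMIs, and the direction was the same under each of the 10 alternatives tried.

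The other calcineurin subunits differed less. *Ppp3cb*, the A beta subunit that is the main catalytic form of lymphocytes, was at 26.7, 14.5 and 15.96 CPM (WT unstimulated, WT stimulated, IFT20-KO stimulated), a log2 ratio of -0.88 (-0.99 to -0.76) for WT stimulation. *Ppp3cc*, the A gamma subunit, was at 43.8, 33.2 and 32.7 CPM, which gave a log2 ratio of -0.40 (-0.48 to -0.31). *Ppp3r1*, the calcium-binding B subunit, was at 49.3, 30.7 and 33.9 CPM, which gave a log2 ratio of -0.68 (-0.77 to -0.60). None of these reached 2-fold over all cells, though *Ppp3cb* was at -1.24 between high-UMI stimulated and all unstimulated cells with equal weight for each cell, and all 3 changed direction per cell without scaling, at 0.123 against 0.172, 0.202 against 0.392 and 0.228 against 0.363 UMIs per cell. *Ppp3cc* also changed direction, to 0.05 (-0.12 to 0.23), when every cell was thinned to 1400 UMIs, so its ratio was not firm in sign.

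The catalytic genes together were at 115 CPM unstimulated, 55.3 CPM in WT stimulated and 56.7 CPM in IFT20-KO stimulated cells. Within that sum *Ppp3ca* made up 38.9% (37.4 to 40.4) before and 13.7% (12.9 to 14.6) after stimulation of WT cells, and *Ppp3cc* 38.0% and 60.0%. *Ppp3cb* differed little, at 23.1% and 26.3%. *Ppp3r2*, the testis form of the B subunit, and *Nfatc4* were at 0 UMIs in every library.

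*Rcan1* (ENSMUSG00000022951, chr16:92391953-92470867, minus strand, GRCm38) is the feedback member, and the gene counts merge its transcripts from all start sites. RefSeq gives start windows for it at 2 positions, 66091 bases apart on chromosome 16 (GRCm38.p6, minus strand): an upstream start, at chr16:92466170-92466419, and an internal one, at chr16:92400079-92400328, each coordinate range covering the 250 bases before the start. They are printed, 5′ to 3′, because the internal start is the one known to answer to NFAT, and the capitals mark GGAAA, the core letters of NFAT sites, or TTTCC, the same letters read on the other strand.
Rcan1 upstream start: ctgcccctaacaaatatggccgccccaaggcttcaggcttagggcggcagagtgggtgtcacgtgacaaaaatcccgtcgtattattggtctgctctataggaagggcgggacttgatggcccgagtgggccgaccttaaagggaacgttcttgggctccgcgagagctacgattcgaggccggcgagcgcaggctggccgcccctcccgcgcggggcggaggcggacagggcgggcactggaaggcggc
Rcan1 internal start: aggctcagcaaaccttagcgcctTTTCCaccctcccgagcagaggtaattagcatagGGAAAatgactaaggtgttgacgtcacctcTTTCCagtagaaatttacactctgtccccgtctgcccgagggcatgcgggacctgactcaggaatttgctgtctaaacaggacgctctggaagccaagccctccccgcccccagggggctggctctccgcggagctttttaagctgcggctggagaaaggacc
The internal window held 3 matches, with first letters 227, 193 and 163 bases before the start, and the upstream window none. Of the 32851 RefSeq windows of this length, 55.6% held at least 1 match and 6.39% held 3 or more, and 6 of the 9 windows of the members that had one (*Nfatc2*, *Nfatc3*, *Nfat5*, *Ppp3cb*, *Ppp3r1* and *Rcan1*) held a match. The internal *Rcan1* window also held TGACTCA, the letters of an AP-1 site, 110 bases before the start, a motif that on either strand (TGACTCA or TGAGTCA) was in 4.46% of all windows. These are matches of letters and were not tied to any measurement.

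*Rcan1* had the fewest UMIs of the members, with 166, 634 and 664 UMIs in the 3 libraries. It was at 4.47 CPM in unstimulated cells (3.82 to 5.20), 5.42 CPM in WT stimulated cells (5.01 to 5.86) and 6.24 CPM in IFT20-KO stimulated cells (5.77 to 6.73). The WT stimulated interval overlapped each of the others, while the unstimulated and IFT20-KO intervals were apart, and the log2 ratio for WT stimulation was 0.28 (0.03 to 0.53). *Rcan3*, a relative of the same inhibitor family, was lower after WT stimulation, at 28.9 and 15.4 CPM, and *Rcan2* was at 0 UMIs in every library.

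The share of cells in which a member was seen depends on how many UMIs a cell has, so each cell was thinned to 1400 UMIs, which left out 801 unstimulated and 421 WT stimulated cells and no IFT20-KO cell. *Nfatc1* was then found in 8.31%, 19.4% and 21.7% of cells (WT unstimulated, WT stimulated, IFT20-KO stimulated), and without thinning in 23.5%, 64.3% and 56.4%. *Ppp3ca* was found in 6.25%, 1.31% and 1.24% of thinned cells. *Rcan1* was found in 0.456%, 0.749% and 0.920%, and without thinning in 2.05%, 6.09% and 4.48%, above the highest share for a B cell marker, 1.05%, 0.616% and 0.833%. No cell type in the sort should lack these genes, so stray RNA from the T cells themselves would carry them too. The marker share therefore cannot tell how much of the *Rcan1* signal was stray. Cells with UMIs of more than 1 NFAT gene were few at this depth: 24.8% of unstimulated cells held any NFAT UMI, and 2.30% held UMIs of exactly 2 NFAT genes, against 5.53% of WT stimulated cells.

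The second comparison asked how the NFAT system of stimulated cells stood without IFT20, a protein of intraflagellar transport that the study followed in T cell receptor signaling. Over all filtered cells *Nfatc2*, *Nfatc3* and *Nfat5* were 25% or more higher in the IFT20-KO library, which is 3 of 9 members against 30.1% of the 13504 genes tested, and none was 20% or more lower (the same ratio inverted), against 6.3% of genes. None differed by 2-fold, as did 5.6% of genes, nor did any in high-UMI or in low-UMI cells alone, as did 4.04% and 5.18% of genes. By counting error alone 7 intervals lay above 0, against 45.1% of genes, and 0 below, against 16.1%. Scaling by the median ratio left 19.8% of genes higher and 10.8% lower, with the median gene at 0 in place of 0.14 on the log2 scale, and 2 members past the rule. Per cell without scaling, 7 of the 9 ratios turned negative, in a library with fewer UMIs per cell, and *Nfat5* and *Ppp3cc* kept their sign. The median gene was then at -0.49, and 68.5% of genes were 20% or more lower.

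Among the NFAT genes the log2 ratio of IFT20-KO to WT was largest for *Nfat5*, at 0.92 (0.87 to 0.98), which exceeded that of 95.1% of genes. *Nfatc3* followed at 0.58 (0.52 to 0.63), *Nfatc2* at 0.39 (0.29 to 0.49) and *Nfatc1* at 0.17 (0.14 to 0.20), the last close to the median gene. The calcineurin subunits lay near or below the median gene: *Ppp3ca* at 0.09 (-0.04 to 0.23), *Ppp3cb* at 0.14 (0.04 to 0.23), *Ppp3r1* at 0.14 (0.08 to 0.21) and *Ppp3cc* at -0.02 (-0.09 to 0.04), of which *Ppp3ca* and *Ppp3cb* turned negative under median-ratio scaling. *Rcan1* was at 0.20 (0.04 to 0.36).

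Restricting both libraries to high-UMI cells, 7602 of WT and 7244 of IFT20-KO, left 13201 genes to compare and lowered the NFAT ratios. Only *Nfat5* was then 25% or more higher, against 15.8% of genes, and no member was 20% or more lower, against 7.7%. Intervals lay above 0 for 5 members, against 30.2% of genes, and below 0 for 1, against 17.1%. *Nfat5* was at 25.7 CPM in WT (24.7 to 26.6) and 35.0 CPM in IFT20-KO high-UMI cells (33.8 to 36.2), a log2 ratio of 0.45 (0.37 to 0.52). *Nfatc3* was at 30.0 and 36.8 CPM, which gave a log2 ratio of 0.29 (0.22 to 0.36). Both intervals lay above 0, and both ratios were smaller than over all cells. The ratio was 0.06 for *Nfatc1* (129 and 134 CPM) and 0.12 for *Nfatc2* (11.7 and 12.7 CPM), and both turned negative per cell without scaling. *Ppp3cc* was the member whose interval lay below 0 in IFT20-KO high-UMI cells, at 31.1 CPM in WT against 27.5 CPM, which gave a log2 ratio of -0.18 (-0.26 to -0.11) below which 13.1% of genes lay.

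In low-UMI cells, compared after the data had been seen, the NFAT ratios had the opposite sign. *Malat1* and *Neat1*, RNAs that stay in the nucleus, were also lower in IFT20-KO there, at -0.52 and -0.87, with the median gene at -0.06. The low-UMI cells were not alike in depth, with medians of 1829 UMIs in WT and 2421 UMIs in IFT20-KO. Of the 9 members 3 (*Nfatc2*, *Nfatc3* and *Ppp3cc*) were 20% or more lower in IFT20-KO low-UMI cells, against 25.2% of the 11680 genes tested, and none was 25% or more higher, against 19.2%. Intervals lay below 0 for 5 members, against 22.9% of genes, and above 0 for none, against 17%. The *Nfatc1* level was 315 CPM in WT and 254 CPM in IFT20-KO low-UMI cells, a log2 ratio of -0.31 (-0.40 to -0.22). *Nfatc3* was at 188 and 145 CPM, a ratio of -0.38, and *Nfat5* at 269 and 235 CPM, a ratio of -0.20 (-0.29 to -0.10). The IFT20-KO level was thus lower within low-UMI cells for every NFAT gene, somewhat higher within high-UMI cells for *Nfatc3* and *Nfat5*, and higher over all cells together, in a library where low-UMI cells were 48.0% of cells against 23.2%.

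**Figure D3:**
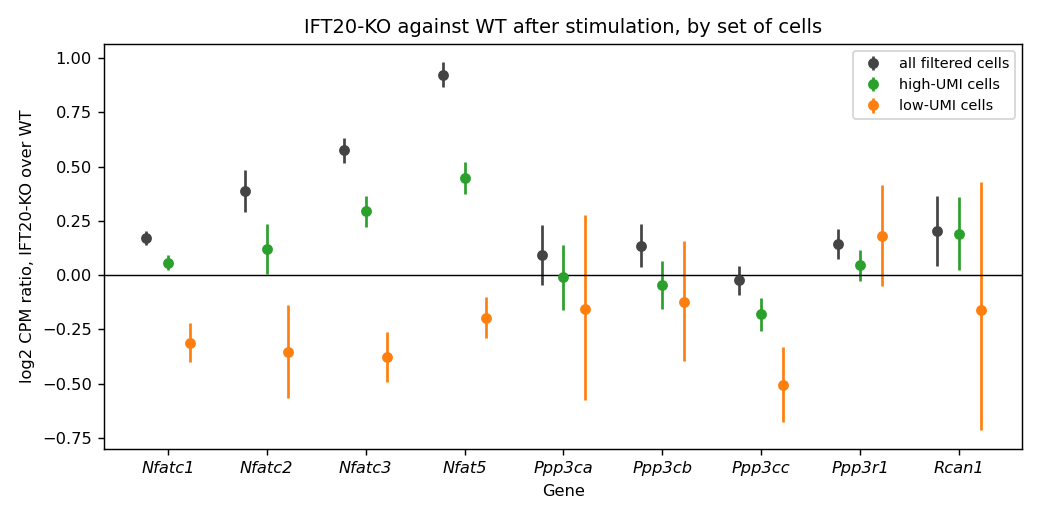
The log2 ratio of IFT20-KO to WT stimulated cells for each member over all filtered cells, high-UMI cells and low-UMI cells, with exact binomial 95% intervals of the UMIs. The NFAT ratios are highest over all cells and negative in low-UMI cells, and the *Ppp3cc* ratio is lower within both sets of cells than over all cells, while per cell without scaling *Nfat5* and *Ppp3cc* alone keep the sign they have over all cells.

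Finer bands of UMI count, chosen after the data had been seen, gave the same picture for *Nfat5* and a further one for *Ppp3cc*. In the 5 bands at or above 4056 UMIs the *Nfat5* ratio was 1.27, 0.59, 0.43, 0.31 and -0.01 from the fewest UMIs to the most, so that it was not seen in cells of 24336 UMIs or more (-0.31 to 0.28). *Ppp3cc* had ratios of -0.48, -0.45, -0.35, -0.01 and -0.42 in those bands and of -0.51 in low-UMI cells, below 0 in all 6, although the interval of the fifth band of the 6 spanned 0 (-0.16 to 0.15) and the ratio over all cells was -0.02. With the IFT20-KO level reweighted to the WT share of UMIs in each of the 6 bands, *Nfat5* was at 41.5 CPM against 34.8 CPM in WT, a log2 ratio of 0.25, and no member was 25% higher or 20% lower. The reweighted ratio was 0.14 for *Nfatc3*, -0.30 for *Ppp3cc*, 0.17 for *Rcan1* and between -0.07 and 0.04 for the other 5 members.

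The members differed in how strongly they followed the UMI count of the cell. Each library was divided into 5 equal classes of cells by UMI count. From the class of WT stimulated cells with the fewest UMIs to that with the most, *Nfat5* went from 281 to 28.2 CPM, a 9.97-fold difference that exceeded that of 98.4% of the 10354 genes with at least 100 UMIs, where the median was 1.59-fold. *Nfatc3* differed by 6.92-fold, *Nfatc2* by 5.30-fold, *Ppp3cc* by 3.65-fold, *Nfatc1* by 2.74-fold, *Ppp3cb* by 2.51-fold and *Ppp3ca* by 1.99-fold. *Rcan1* and *Ppp3r1*, at 1.58-fold and 1.42-fold, lay near or below the median gene. *Malat1* and *Neat1*, RNAs that stay in the nucleus, differed by 9.25-fold and 9.65-fold in the same cells.

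In the other libraries too *Nfat5* differed most and *Nfatc1* least of the NFAT genes. In IFT20-KO cells the difference between the lowest and the highest class was 5.61-fold for *Nfat5*, 4.23-fold for *Nfatc3*, 3.73-fold for *Nfatc2* and 1.86-fold for *Nfatc1*, and in unstimulated cells it was 3.15-fold, 2.38-fold, 2.50-fold and 1.41-fold. On the genome, introns included, *Ppp3ca* spans 268 kb and *Nfat5* 86.0 kb, and a relation of length to these differences was not tested. In unstimulated low-UMI cells the high levels went with the mitochondrial share: *Nfatc3* was at 492 CPM in the 832 cells at 5% or more and at 109 CPM in the 1936 cells under 5%, next to 99.6 CPM in high-UMI cells. *Nfat5* was at 119 and 20.2 CPM in those cells. In WT stimulated low-UMI cells *Nfat5* was at 293 CPM at 5% or more and 78.5 CPM under 5%. In IFT20-KO low-UMI cells the split made less difference, with *Nfat5* at 264 CPM at 5% or more and 189 CPM under 5%. What produced the low-UMI cells, and its part in these levels, was not tested.

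**Figure D4:**
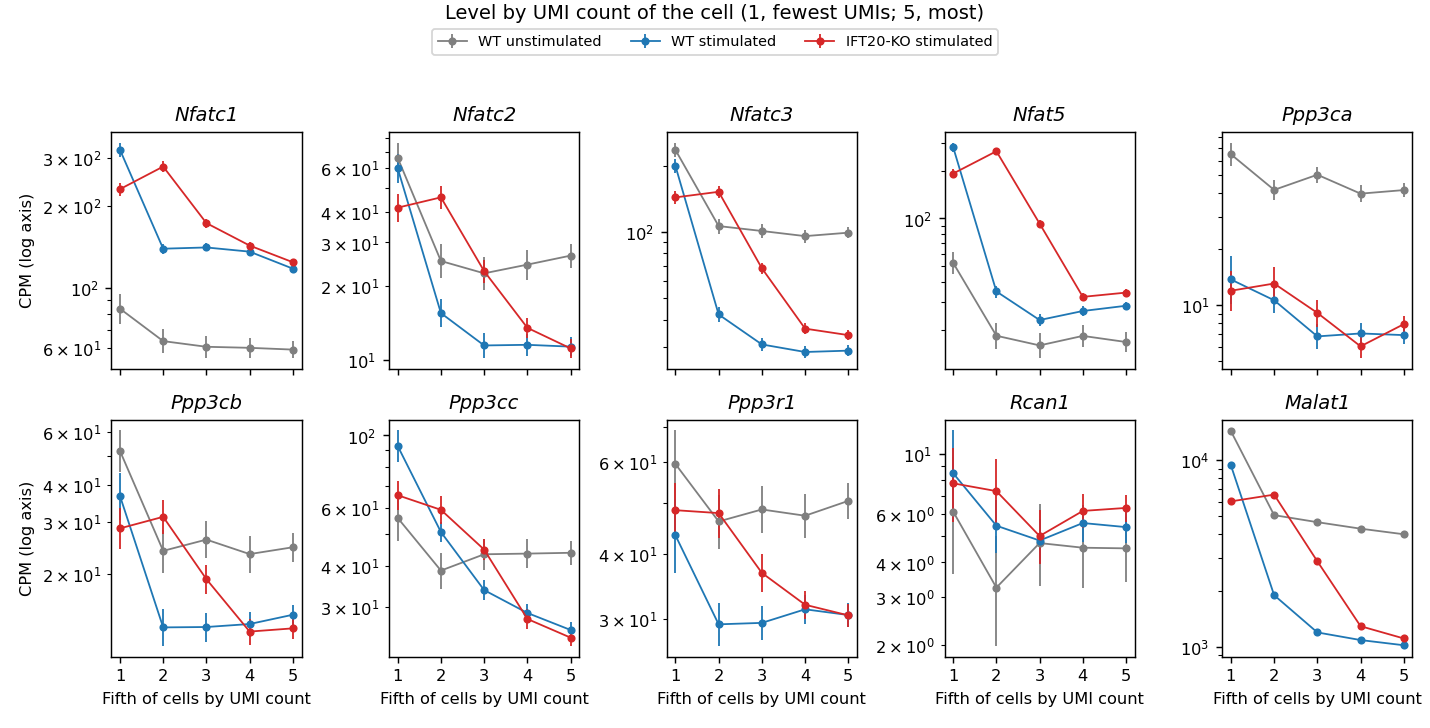
Level in CPM (log axis, each panel on its own scale) of the 9 members and of *Malat1*, in 5 equal classes of the cells of each library ranked by UMI count, with exact Poisson 95% intervals. In the WT libraries *Nfat5*, *Nfatc3* and *Nfatc2* are highest in the class with the fewest UMIs, as *Malat1* is. In the IFT20-KO library these NFAT genes, *Malat1*, *Nfatc1*, *Ppp3ca* and *Ppp3cb* are highest in the next class. There *Nfat5* is at 265 CPM, and the intervals of *Nfatc2*, *Nfatc3*, *Ppp3ca* and *Ppp3cb* overlap those of the lowest class. *Rcan1* and *Ppp3r1* differ by at most 1.59-fold between the lowest and the highest class of any library.

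Splitting cells by a UMI of another gene showed which members went with an activation or resting transcript. In high-UMI WT stimulated cells thinned to 4056 UMIs, *Nfatc1* was found in 49.5% (46.9 to 52.2) of the 1439 cells with *Egr2*, an NFAT-induced zinc finger factor, and in 35.1% (33.9 to 36.3) of the 6163 without. In IFT20-KO cells the shares were 49.0% and 38.9%, again with intervals apart, and *Nfatc1* was the only member for which the *Egr2* split separated the intervals in either library. The splits, here and below, were run on the members only, so the share of all genes that they would separate is not known. In unstimulated cells *Nfatc1* was found in 20.5% of the 117 cells with *Nr4a1*, an early gene of receptor signaling, and in 8.11% of the rest (at 1400 UMIs).

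*Nfat5* went with *Il2*, the T cell growth factor gene: it was found in 12.6% (10.5 to 15.1) of WT cells with *Il2* and 8.53% (7.88 to 9.22) of those without, and in 17.9% and 13.1% of IFT20-KO cells. *Ppp3cc* stood lower in WT cells with *Il2*, at 7.74% against 12.7%, but not in IFT20-KO cells, at 11.48% against 11.3%. It was higher in WT cells with *Il7r*, a gene of resting T cells, at 30.5% (22.8 to 39.2) of 131 cells against 11.8% (11.1 to 12.6). In IFT20-KO cells *Ppp3cc* was at 18.6% (11.9 to 27.0) of 113 cells with *Il7r* and 11.2% (10.5 to 12.0) without, with intervals that overlapped by a narrow margin. *Nfatc3* had intervals apart for *Il7r* in both libraries, at 18.3% with and 11.3% without in WT and 22.1% and 13.8% in IFT20-KO cells. *Nfatc1* stood lower with *Il7r* in WT cells, at 28.2% against 38.0%, whereas in IFT20-KO cells it was at 43.4% and 40.2% with overlapping intervals. *Nfat5* (23.0% against 13.4%) and *Nfatc2* had intervals apart for *Il7r* in IFT20-KO cells but not in WT cells. *Rcan1* showed no interval apart in any of the 8 splits. In unstimulated cells *Nfat5* was found in 6.13% (2.98 to 10.99) of the 163 cells with *Foxp3*, the regulatory T cell factor, and in 2.35% (2.01 to 2.73) of the rest. Cells are not replicates, and these intervals say nothing of other mice. Thinning did not make the cells alike in their original UMI count. From the WT stimulated class with the next fewest UMIs to that with the most, *Ppp3cc* went from 50.7 to 25.5 CPM. Over the same classes *Il2* went from 60.2 to 190 CPM. The part of the UMI count in the splits was not tested.

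Genes upstream and downstream of the members were followed as lists. Of 18 genes of calcium entry and stores, 1 was 2-fold or more higher after WT stimulation, against 19.3% of all genes tested. In the other direction 10 were 2-fold or more lower, against 23% of genes, and the median log2 ratio was -1.10 against -0.09 for all genes. *Orai1*, the pore of the calcium-release activated channel, was the higher one, at 95.7 and 201 CPM, which gave a log2 ratio of 1.07. Its relative *Orai2* was at 55.4 and 12.1 CPM, and *Atp2a3*, a calcium pump of the endoplasmic reticulum, at 69.6 and 14.99 CPM. *Atp2a2*, another such pump, went the other way, at 16.1 and 29.1 CPM. Per cell without scaling the median of this list was 0.25, against 1.26 for all genes. Of the 9 measured genes among the NFAT kinases and nuclear transport factors, none was 2-fold higher, against 19.3% of genes, and 2 were 2-fold lower, against 23%. The lower ones were *Dyrk2* at -2.04 and *Gsk3b* at -1.03, both kinases that phosphorylate NFAT. Of the 8 measured calcineurin regulators and drug-binding partners, 2 were 2-fold higher and 1 lower, against 19.3% and 23% of genes. The lower one, *Akap5*, had few UMIs, with 15 in WT stimulated and 19 in unstimulated cells. *Fkbp1a*, the receptor of the drug FK506, was at 305 and 884 CPM, and it has near-identical copies elsewhere in the genome that could share its reads.

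Of the 11 NFAT target genes, 8 were 2-fold or more higher after WT stimulation, against 19.3% of genes, and none lower, against 23%. Their median log2 ratio was 2.91. Of the 8, *Csf2* had 129 UMIs in stimulated and 0 in unstimulated cells. Its ratio thus rested on the 3 counts set for a library at 0. *Ifng* (347 UMIs in stimulated and 8 in unstimulated cells) and *Il4* (145 and 3) had few unstimulated UMIs. *Il2* was at 0.458 and 121 CPM, *Pdcd1*, an inhibitory receptor, at 6.19 and 164 CPM, and *Cd40lg*, the ligand of CD40, at 133 and 150 CPM. In the IFT20-KO library 6 of the 11 were 20% or more lower over all cells, against 6.3% of genes, and none 25% higher, against 30.1%, with a median of -0.38 against 0.14 for all genes. Among the lower genes, *Ifng* (347 UMIs in WT and 31 in IFT20-KO), *Il4* (145 and 14) and *Il3* (14 and 1) had few UMIs. In high-UMI cells too 6 were lower, against 7.7% of genes, and none higher, against 15.8%, with a median of -0.43 against 0.05. There *Il3* had 14 UMIs in WT and 0 in IFT20-KO, so its ratio rested on the 3 counts set for a library at 0. *Il2* stood at 121 CPM in WT and 68.7 CPM in IFT20-KO cells, a ratio of -0.81 (-0.85 to -0.77), and *Egr2* at 56.7 and 41.2 CPM, a ratio of -0.46 (-0.52 to -0.41). In low-UMI cells 7 of the 9 targets measured were 20% or more lower, against 25.2% of genes, and none 25% higher, against 19.2%. Their median there was -0.59, against -0.06 for all genes. The NFAT genes themselves were not lower in CPM over all cells or high-UMI cells, but every one was lower in low-UMI cells. These target values are given beside the members with no test of a link.

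The calcium entry list stood higher in IFT20-KO cells, with 12 of 18 genes 25% or more higher over all cells, against 30.1% of genes, and none 20% lower, against 6.3%, and a median of 0.38 against 0.14 for all genes. Per cell without scaling the median was -0.25, against -0.49 for all genes. In high-UMI cells 5 of 18 were higher, against 15.8% of genes, with a median of 0.14 against 0.05, and in low-UMI cells the median was -0.22 against -0.06. *Itpr2*, a calcium release channel, had ratios of 0.71, 0.33 and -0.31 over all, high-UMI and low-UMI cells. Of the 9 measured kinases and transport factors 2 were 25% or more higher over all cells, against 30.1% of genes. They were *Xpo1*, the exportin of NFAT, at 0.47 and *Gsk3b* at 0.39. In high-UMI cells none was, against 15.8% of genes, and the list median over all cells, 0.09, was below the 0.14 of all genes. Of the 9 measured regulators 4 were higher over all cells, against 30.1% of genes, *Cabin1* among them at 0.46. *Akap5*, another of the 4, had 21 UMIs in IFT20-KO and 15 in WT cells, with an interval that spanned 0 (-0.40 to 1.68). In high-UMI cells 2 were higher, against 15.8% of genes, and the medians over all and high-UMI cells were 0.29 and 0.15. Of those 2, *Akap5* had 12 UMIs in each library and an interval of -0.96 to 1.61. The medians of these lists were thus lower in high-UMI cells than over all cells, as was that of all genes.

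Genes known to answer to NFAT5 and high salt differed in both directions after WT stimulation. Of 6 measured, 2 were 2-fold or more higher, against 19.3% of genes. They were *Slc5a3*, the myo-inositol transporter, at 3.58 and 18.7 CPM and *Hspa4l*, a heat shock protein gene, at 12.2 and 40.1 CPM. *Hspa1b*, another heat shock gene, was the 1 that was 2-fold or more lower, against 23% of genes, at 23.3 and 0.0855 CPM. The median ratio was -0.14. In IFT20-KO cells 2 of the 6 were 25% or more higher over all cells, against 30.1% of genes, and 1 was 20% or more lower, against 6.3%. The lower one was *Hspa1b*, with 6 UMIs in IFT20-KO and 10 in WT cells and an interval that spanned 0 (-2.34 to 1.00). The list median was 0.16 against 0.14 for all genes, and none of the 5 measured in high-UMI cells passed either size. *Slc5a3* had a ratio of 0.59 over all cells, 0.26 (0.16 to 0.36) in high-UMI cells and -0.39 (-0.55 to -0.24) in low-UMI cells.

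Finally, genes with profiles like those of *Nfatc1* and *Rcan1* were listed over 15 points, the 5 UMI classes of each of 3 libraries, as Pearson correlations of log2(CPM + 1) among 6123 genes. Nearest to *Nfatc1* were *Tnfsf8*, *Txlna*, *Cd274*, *Slc7a5* and *Spata5*, with r between 0.991 and 0.993, and 270 genes, *Nfatc1* itself included, had r above 0.95. *Tnfsf8*, the ligand of CD30, was at 42.3, 139 and 154 CPM in the 3 libraries. Nearest to *Rcan1* were *Rad51d*, *Atg7*, *Elp4*, *Cnot10* and *Med17*, with r between 0.914 and 0.936, and no gene was above 0.95. The unstimulated points of *Rcan1* rested on 18 to 54 UMIs each, so counting error weighs on its profile. The points share libraries and depth, so these values describe likeness and nothing more.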

How the data were processed

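The authors aligned the reads to mm10 and counted UMIs with Cell Ranger, version 3.1.0 per the file headers, and deposited whole-number counts per gene and barcode for called cells, without normalization. The labels name a 5′ kit and the paper's methods a 3′ kit, and whether counting used strand is not given in the sources used here, so isoforms cannot be told apart and reads shared with overlapping genes (*Esrp2* at *Nfatc3*, *Wdr92* at *Ppp3r1*, antisense genes at *Nfatc1*, *Ppp3cb*, *Ppp3cc* and *Rcan1*) are uncertain.

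The cell filter asked for over 200 genes and a mitochondrial share below 15%, which left out 222, 417 and 12 barcodes. UMIs were summed per library and given per 1000000 (CPM) with exact Poisson intervals, ratios with exact binomial intervals from the UMI counts, and shares with Clopper-Pearson intervals, all at 95%. Genes reaching 10 UMIs in the pair of libraries compared were called by size, at 2-fold for stimulation and at 25% higher or 20% lower for IFT20-KO, and a library at 0 was set to 3 counts. No doublets were removed, and no p-value was computed. The members and lists were chosen with earlier results of these data known. Named are the members, *Ift20*, *Malat1*, *Neat1*, of each list the 2 highest and 2 lowest ratios per comparison among genes of at least 10 CPM in either library (not all are printed), and for *Nfatc1* and *Rcan1* the 5 most alike genes among those of at least 20 CPM. Markers, genes at 0 UMIs, list genes with few UMIs and the genes that split cells are named beside these. The ratio intervals were tried on simulated Poisson counts of whole libraries, where they held 96% (stimulation) and 98.5% (IFT20-KO) of 200 set changes. Such counts follow the counting model of the intervals, so this does not cover differences between cells or libraries. Of 31053 identifiers, 31011 are in GENCODE M21, 30541 with the same symbol. Python 3.11.15, numpy 2.4.6, scipy 1.17.1, pandas 2.3.3 and matplotlib 3.10.9 were used.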

Additional observations from a re-analysis of the deposited data

How the results depend on the processing

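Tried in turn were all barcodes, median-ratio scaling, equal weight for each cell (per-cell fractions), no scaling (UMIs per cell), more than 1000 genes with under 10% mitochondrial UMIs, thinning to 1400 UMIs, leaving out the 6% of cells with most UMIs, minimums of 1 and 50 UMIs per gene, the UMI line on every library, and a line at the median divided by 2; 2 more, low-UMI cells and reweighting by UMI band, were chosen after seeing the data. For stimulation, the count of members 2-fold or more higher was 1 as reported, 2 with median-ratio scaling, per-cell fractions or thinning, and 3 per cell without scaling; the count lower was 3, 2 with median-ratio scaling or per-cell fractions (without *Nfatc2*, at -0.87 and -0.78), and 1 with thinning or per cell without scaling. Of all genes, 23.6%, 19.9%, 21.4% and 58.5% were higher with median-ratio scaling, per-cell fractions, thinning and per cell without scaling. In the same order 18.6%, 18.7%, 14.5% and 6.4% were lower. With high-UMI stimulated cells these were 1 and 3, and became 1 and 2 with median-ratio scaling, 0 and 4 with per-cell fractions (*Ppp3cb* at -1.24) and 4 higher and 0 lower per cell without scaling. There 24.6%, 17.4% and 65.6% of all genes were higher in these settings, and 19.5%, 30.2% and 5.5% lower. Per cell without scaling the *Nfatc2* ratio turned to 0.28 over all and 0.42 over high-UMI cells, and the calcium entry median to 0.25 and 0.37. The median of all genes was then 1.26 and 1.52. For IFT20-KO, the count 25% or more higher was 3 as reported, 1 with the UMI line, and 0 per cell without scaling, in low-UMI cells or reweighted; the count 20% or more lower was 0, and 6 per cell without scaling and 3 in low-UMI cells. Of all genes, 15.8% were higher with the UMI line, 4.48% per cell without scaling and 19.2% in low-UMI cells. The shares lower were 68.5% per cell without scaling and 25.2% in low-UMI cells. No share of genes was computed for the reweighted setting. In high-UMI cells it was 1 higher and 0 lower, and became 2 higher with per-cell fractions, 2 higher and 1 lower with thinning, and 0 higher and 1 lower per cell without scaling. The shares of all genes higher in these settings were 19.1%, 19.7% and 6.52%, in the same order. Those lower were 7.58%, 7.80% and 25.99%. Of the 9 IFT20-KO ratios over all cells, 7 turned to the other sign per cell without scaling (all but *Nfat5* and *Ppp3cc*), 7 in low-UMI cells (all but *Ppp3cc* and *Ppp3r1*) and 3 when reweighted (*Nfatc1*, *Nfatc2* and *Ppp3cb*). Among the members 25% or more higher these were, per cell without scaling, *Nfatc2* (-0.24) and *Nfatc3* (-0.052), in low-UMI cells *Nfatc2* (-0.36), *Nfatc3* (-0.38) and *Nfat5* (-0.20), and, reweighted, *Nfatc2* (-0.039). Per cell without scaling the list medians turned to -0.25 for calcium entry, -0.34 for the regulators, -0.53 for kinases and transport and -0.46 for the tonicity genes, and in low-UMI cells those of calcium entry (-0.22) and the tonicity genes (-0.39) turned. The median of all genes was -0.49 per cell without scaling and -0.06 in low-UMI cells. Scaling per cell follows the total UMIs per cell, and low-UMI cells weigh more in per-cell fractions and thinned cells by construction; the cause of the other differences was not tested.

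No paired analysis was possible because each group is 1 library and no result comes from a test. Leaving out a replicate would leave a group with no library. Depth limits *Rcan1* most, with 166 unstimulated UMIs.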
